A study of Xenopus laevis with 12 samples.

Results

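The genes described here are those of the cilium and its axoneme, the microtubule core that makes motile cilia beat. They were taken from the annotation of the array by gene name, as the families cfap, dnah, dnai, dnal, dnaaf, ift, tekt, rsph, bbs, spag and tctn together with ccno, mcidas, tubb4b, rfx2 and rfx3. The rule matched 45 of 15491 tested probe sets, and the probe set of highest mean level for each symbol left 38 genes among the 7531 named genes. Neither mcidas, rfx3 nor any tctn gene was among the named probe sets used here. The array was hybridised with RNA from single whole Xenopus laevis embryos at stage 11.5, a gastrula stage. The control group of 6 embryos had been given GFP mRNA, and the other group of 6 had been given mRNA for the heart homeodomain factor Nkx2-5 together with GFP mRNA, in both cases by injection at the 8-cell stage. GFP mRNA and the injection itself were therefore common to both groups. The labels give neither the mRNA dose, the blastomeres injected, the strain nor the parents of the embryos, so the p-values rest on how much these particular embryos vary.

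Cilia are built by intraflagellar transport, in which trains of IFT proteins carry building blocks along the axoneme, while the BBSome moves membrane proteins. Motile cilia also carry dynein arms, radial spokes and a central apparatus, and their dynein arms are put together in the cytoplasm by assembly factors before transport. In the frog embryo the best known motile cilia belong to multiciliated cells of the epidermis, which are set aside in the inner layer of the ectoderm and form their cilia later than the stage sampled here. Cyclin O and the transcription factor Rfx2 act in that programme, the former in centriole multiplication and the latter as an activator of ciliary genes. Many other ciliary genes serve the primary cilium and centrosome of most cell types.

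Nkx2-5+GFP embryos had higher signals for cfap52.S, which encodes a protein on the inside of axonemal microtubules, and for ccno.L, the cyclin O gene. Of the 38 genes, these 2 rose, 0 fell and 36 did not pass (limma, Benjamini-Hochberg adjusted p under 0.05 over all probe sets). The share called was 5.26%, against 6.38% of all probe sets, so the count of calls among cilium and axoneme genes was close to that of the array. By direction, 3.12% of all probe sets were higher and 3.26% were lower. At an unadjusted p under 0.05 limma marked 11 of the 38. Of the 38, 9 (23.7%) were marked as higher and 2 (5.26%) as lower in Nkx2-5+GFP embryos. Over all probe sets the unadjusted shares were 10.9% higher and 13.3% lower. The median log2 difference of the 38 genes was 0.05, with 20 above 0 and 18 below, and that of all probe sets was -0.02. Differences are Nkx2-5+GFP minus GFP on the scale log2(signal + 16), on which changes of dim probe sets come out too small, and 20 of the 38 genes lay below the array's median level.

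**Figure D1:**
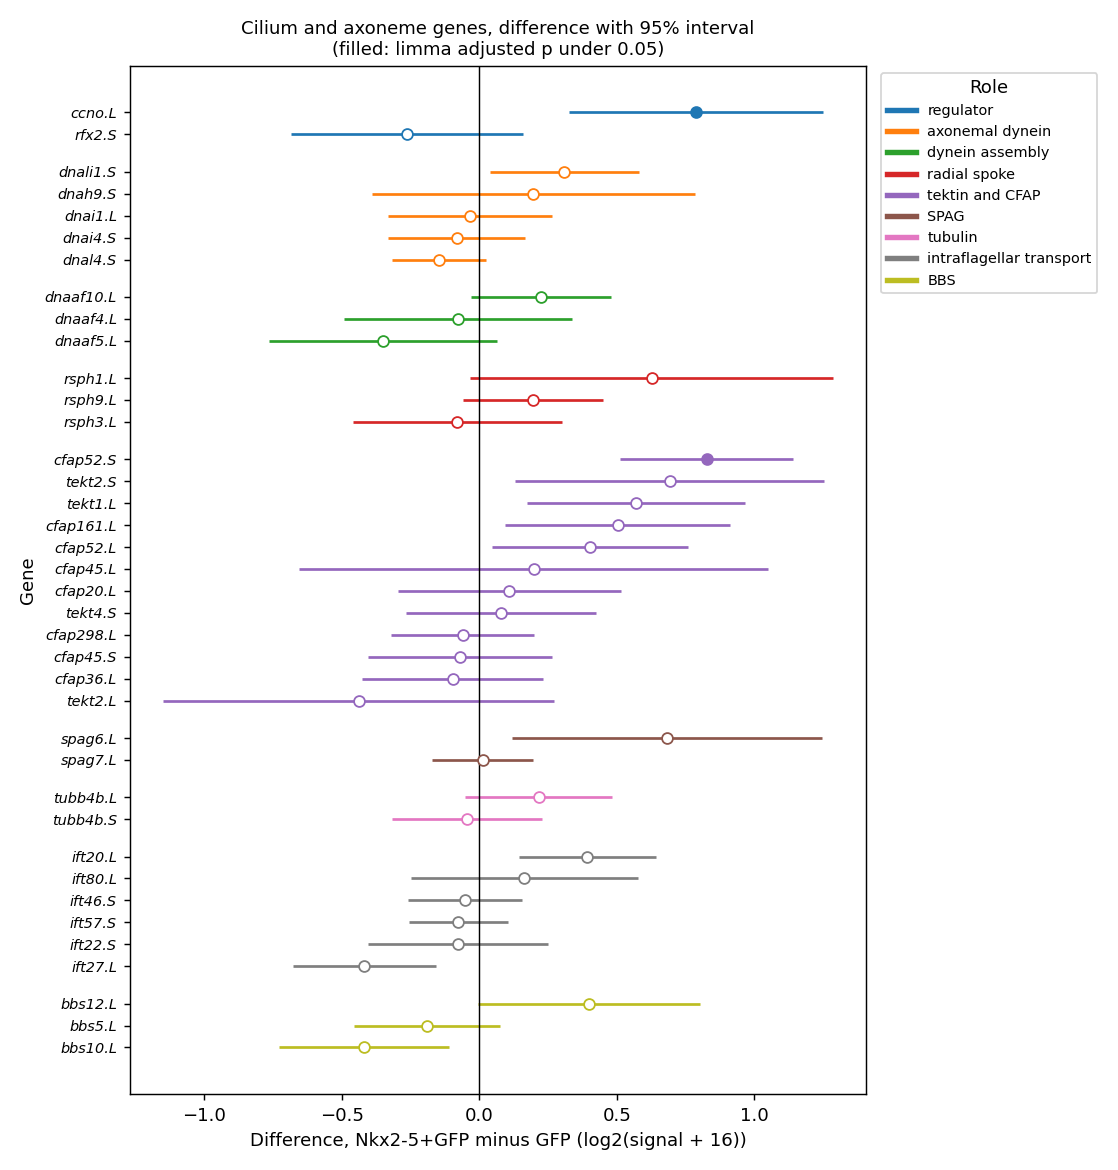
Difference between Nkx2-5+GFP and GFP embryos for each of the 38 genes, on the log2(signal + 16) scale, with limma's 95% interval and colours for the role of the gene. The 2 filled points, ccno.L at 0.79 and cfap52.S at 0.83, passed the adjusted threshold, and most other intervals include 0.

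Signals are the deposited MAS5 values, with medians of 302 to 346 per array and a 10th percentile between 16.9 and 24.3. The epidermis is the tissue that holds multiciliated cells. The epidermal list and the further lists of this paragraph were chosen with earlier results of these data known. Their shares are therefore no independent evidence of a change in a tissue. Of 26 measured epidermal genes 11 rose, 0 fell and 15 did not pass, a share called of 42.3% against 6.38% of all probe sets. Their summed signal lay between 55804 and 67037 in GFP embryos and between 72415 and 85964 in Nkx2-5+GFP embryos, without overlap. Bright genes weigh most in this sum, krt70.S, a gene named after its values were seen, alone having means of 21169 and 26094. With all 26 genes weighted alike, an embryo's mean log2 deviation was -0.35 to -0.066 in the GFP group. In the Nkx2-5+GFP group it was 0.075 to 0.37. The keratin gene krt12.4.S rose by 1.26 and the secreted intelectin gene itln1.L by 2.49. Of the 26 differences, 21 lay above 0 and 5 below. At an unadjusted p under 0.05 limma marked 18 as higher and 3 as lower. The claudin copies cldn6.1.S and cldn6.1.L, the brightest genes that did not pass, differed by -0.27 and -0.25 (limma's adjusted p = 0.0696 and 0.148). None of the 26 was at 0, but single markers were dim, and these and the ionocyte genes are named after their values were seen. The epidermal stem cell factor tp63.L had a median of 16.3 in the control group and of 51.7 in the Nkx2-5+GFP group and did not pass (limma's adjusted p = 0.180). The ionocyte markers did not pass either and differed in sign. The proton pump gene atp6v1b1.L was at -0.45 (medians of 16.4 and 5.59) and the factor foxi1.L at 0.70 (medians of 153 and 263). Of the carbonic anhydrase genes, the copies ca2.L and ca2.S were at 0.17 and -0.30. The brighter ca12.L was at -0.42 (medians of 2275 and 1761, limma's adjusted p = 0.112). Of 20 maternal and germ plasm genes 0 rose, 4 fell and 16 did not pass, and their summed signals overlapped, at 42677 to 58772 in GFP and 38276 to 50218 in Nkx2-5+GFP embryos. All 20 differences lay below 0, with a median of -0.28. At an unadjusted p under 0.05 limma marked 10 of them as lower, or 50.0%, against 13.3% of all probe sets. Of 23 mesoderm and endoderm genes 4 rose and 3 fell, among them the muscle factor myf5.L at 1.13 and the endoderm factor mix1.L at -1.23. The share called was 30.4%, against 6.38% of all probe sets. Cell cycle genes had 0 rises and 4 falls among 36, a share called of 11.1% against 6.38% of all probe sets. Their median log2 difference was -0.15, with 10 differences above 0 and 26 below. Limma marked 6 of them as higher and 12 as lower at an unadjusted p under 0.05, or 16.7% and 33.3%. Of all probe sets 10.9% and 13.3% were so marked. Neural and midline genes had 1 rise and 1 fall among 16, with 8 differences above 0 and 8 below. Limma marked 4 of these as higher and 5 as lower at the unadjusted threshold. The part of these differences in the ciliary results was not tested. In RNA from whole embryos, fewer cells of a type and less RNA per cell cannot be told apart. The beta-actin 3' to 5' ratio, a measure of RNA quality, was 1.70 ± 0.24 in GFP and 1.54 ± 0.10 in Nkx2-5+GFP embryos on the log2 scale (SD, n = 6 each, exact permutation p = 0.197).

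Of the regulators, ccno.L encodes an atypical cyclin needed for the mass production of centrioles in multiciliated cells. Its signal in GFP embryos was 456 at the lowest, 939 at the median and 1314 at the highest. In Nkx2-5+GFP embryos the corresponding signals were 1201, 1446 and 2247. All 6 Nkx2-5+GFP embryos lay above the median of the GFP embryos and 4 lay above the highest of them, GFP embryo 2, while Nkx2-5+GFP embryos 1 and 4 overlapped with it. The log2 difference was 0.79 (standard error 0.22, limma's adjusted p = 0.0439, exact permutation p = 0.00649), or 1.73-fold. This call was close to the threshold. It was lost when any of 10 of the 12 embryos was left out, the exceptions being GFP embryo 2 and Nkx2-5+GFP embryo 5, and with the beta-actin ratio in the fit the log2 difference was 0.56 (limma's adjusted p = 0.169).

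The other regulator on the array, rfx2.S, encodes the winged-helix factor that binds the promoters of many ciliary genes. Its signal ran from 693 through a median of 1045 to 1441 in GFP embryos and from 574 through 892 to 1161 in Nkx2-5+GFP embryos, and the groups overlapped. The log2 difference was -0.26, with a 95% interval from -0.68 to 0.16 (limma's adjusted p = 0.457). Thus ccno.L passed the test and rfx2.S did not. The difference between the responses of these genes was not tested.

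The other 7 genes of a list of multiciliated cell regulators besides ccno.L and rfx2.S had 0 calls. The share called in the whole list was 11.1%, against 6.38% of all probe sets. At an unadjusted p under 0.05 limma marked 2 of its genes as higher and 1 as lower. The list had 9 measured genes for 20 names, 6 of them below the array's median level, with a median log2 difference of 0.31, 7 differences above 0 and 2 below. Those not called are all given, having been named after their values were seen. ccdc78.S, which encodes a protein of the deuterosome, the platform on which new centrioles form, had signals of 16.2 to 77.4 with a median of 43.7 in GFP embryos. In Nkx2-5+GFP embryos they were 60.8 to 108 with a median of 77.9, which gives 0.75 in log2 units and did not pass (limma's adjusted p = 0.0870). foxn4.S, a forkhead factor of multiciliated cells, differed by 0.34 (limma's adjusted p = 0.419). rfx5.L, another factor of the RFX family, lay the other way at -0.61, with signals of 76.7 to 137 in GFP and 19.7 to 93.0 in Nkx2-5+GFP embryos, 5 of the latter being below every GFP embryo (limma's adjusted p = 0.145). The E2F partner copies tfdp1.L and tfdp1.S differed by 0.15 and 0.31, and e2f4.S, for an E2F factor, by 0.04. myb.S, a factor of their early differentiation, differed by 0.50 at very low signals of 9.24 ± 8.07 and 19.8 ± 11.7 (SD, n = 6 each, limma's adjusted p = 0.251). foxj1, the main activator of motile cilia genes, was not among the named probe sets used here.

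**Figure D2:**
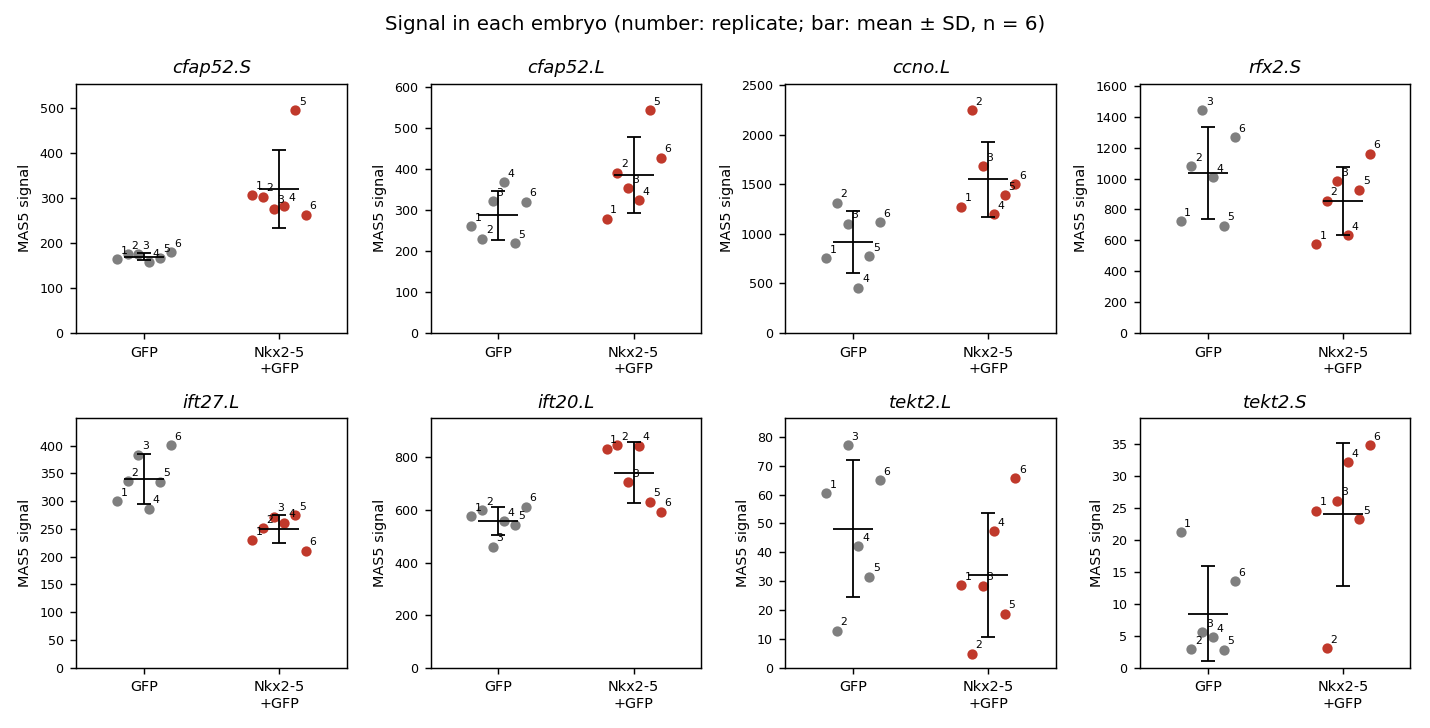
MAS5 signal of 8 genes in each embryo, with the replicate number beside each point and the mean and SD of the 6 embryos of a group as bars. The groups do not overlap for cfap52.S and ift27.L, and Nkx2-5+GFP embryo 5 stands apart at 495 in cfap52.S.

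Among structural genes of the axoneme, cfap52.S showed the clearest difference. The protein, also called WDR16, is one of the proteins that line the inside of the doublet microtubules. GFP embryos lay close together, from 157 through a median of 171 to 179. Nkx2-5+GFP embryos ranged from 263 through 292 to 495, and all 6 were above every GFP embryo. The log2 difference was 0.83 (standard error 0.15, limma's adjusted p = 0.00664), and the exact permutation p of 0.00216 is the smallest that groups of 6 allow. Nkx2-5+GFP embryo 5 stood far above the rest of its group, and without it the difference was 0.70 (limma's adjusted p = 0.00484). With the beta-actin ratio in the fit it was 0.85 (limma's adjusted p = 0.0252).

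Xenopus laevis carries L and S copies of many genes, and cfap52 is on the array in both. cfap52.L had signals of 220 to 368 with a median of 291 in GFP embryos and of 279 to 544 with a median of 373 in Nkx2-5+GFP embryos. The groups overlapped, and the log2 difference of 0.40 did not pass (95% interval 0.05 to 0.76, limma's adjusted p = 0.154). Nkx2-5+GFP embryo 5 was the highest embryo in both copies. The S difference exceeded the L difference by 0.42, with an exact permutation p of 0.0281 and a Benjamini-Hochberg adjusted value of 0.0563 over the 4 pairs of copies compared. The copies are similar in sequence and their probe sets may detect both transcripts, so the copies cannot be fully told apart on this array.

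The tektins form filaments within the doublet microtubules. tekt2 is on the array in both copies, and both probe sets were dim. tekt2.S ran from 2.85 through a median of 5.21 to 21.2 in GFP embryos and from 3.06 through 25.4 to 34.9 in Nkx2-5+GFP embryos. Of the latter, 5 lay above every GFP embryo, and embryo 2 was among the lowest of all. tekt2.L ran from 12.9 through 51.3 to 77.1 in GFP embryos and from 4.88 through 28.5 to 65.7 in Nkx2-5+GFP embryos, with overlap. Neither copy passed on its own when all embryos were used, at log2 differences of 0.69 for tekt2.S (limma's adjusted p = 0.122) and -0.44 for tekt2.L (limma's adjusted p = 0.462). Without Nkx2-5+GFP embryo 2 tekt2.S passed (limma's adjusted p = 0.0466), and in the other 11 omissions of 1 embryo it did not. The S difference exceeded the L difference by 1.13 (exact permutation p = 0.00433, Benjamini-Hochberg adjusted 0.0173 over the 4 pairs of copies compared). Of the GFP embryos, 5 of 6 had tekt2.S signals under 16.9, the lowest 10th percentile of any array, so the size of its difference depends on the pseudocount. With pseudocounts of 1 and 64 the contrast of the copies was 2.17 and 0.50. At such low signals no conclusion about the copies is drawn from it. In the pairs cfap45 and tubb4b the S difference was lower than the L difference by values within the spread of the embryos (-0.27 and -0.26, exact permutation p = 0.584 and 0.301).

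Among 12 tektin and CFAP genes there were 1 rise and 0 falls, with 11 genes short of the threshold. The rise was that of cfap52.S, and the share called was 8.33% against 6.38% of all probe sets. The median log2 difference of the 12 genes was 0.15, with 8 differences above 0 and 4 below. At an unadjusted p under 0.05 limma marked 5 as higher and 0 as lower. The share higher was 41.7%, against 10.9% of all probe sets, and 13.3% of all probe sets were lower. Of the 12 genes, 9 lay below the array's median level. tekt1.L had signals of 40.1 to 81.6 with a median of 73.2 in GFP embryos and of 74.2 to 117 with a median of 108 in Nkx2-5+GFP embryos. Of the 6 Nkx2-5+GFP embryos, 5 exceeded every GFP embryo, and the log2 difference of 0.57 did not pass (limma's adjusted p = 0.0791, exact permutation p = 0.00866). cfap161.L, another gene for a protein inside the doublet microtubules, differed by 0.50, from 87.8 ± 22.4 to 130 ± 29.0 (SD, n = 6 each, limma's adjusted p = 0.122). tekt4.S differed by 0.08 and cfap20.L, for a protein of the junction between the doublet's tubules, by 0.11. cfap298.L, which is needed for dynein arm assembly and for the orientation of cilia, had 1506 ± 288 and 1432 ± 176, a log2 difference of -0.06 with a 95% interval from -0.32 to 0.20. cfap36.L, whose protein binds the small GTPase ARL3, differed by -0.10. cfap45.L, whose protein is also part of the doublet's inner lining, was spread widely among GFP embryos, from 11.1 in embryo 2 to 133 in embryo 3, and its difference of 0.20 had a 95% interval from -0.65 to 1.05.

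Axonemal dynein genes, 5 in number, had 0 calls and a median log2 difference of -0.03. Over all probe sets 6.38% were called, so 0 calls among so few genes is near the array's share. dnali1.S, for a light intermediate chain of inner dynein arms, ran from 222 through 243 to 307 in GFP embryos and from 276 through 304 to 399 in Nkx2-5+GFP embryos. All 6 of the latter exceeded the GFP median, 3 exceeded the highest GFP embryo, and the log2 difference of 0.31 did not pass (limma's adjusted p = 0.150, exact permutation p = 0.0152). dnai1.L, for an intermediate chain of outer arms, had almost equal means of 465 ± 77.0 and 455 ± 77.7 (SD, n = 6 each), and its interval ran from -0.33 to 0.27. dnai4.S, for an intermediate chain of inner arms, differed by -0.08 and dnal4.S, for a dynein light chain, by -0.15. The heavy chain gene dnah9.S was dim, with signals from 2.93 to 31.1 in GFP and from 5.95 to 42.7 in Nkx2-5+GFP embryos, and its other probe set, with a log2 difference of -0.09, was as dim. The direction for dnai1.L turned with quantile normalization or median scaling, at 0.03 and 0.02.

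The 3 genes for dynein assembly factors had 0 calls, which for so few genes is near the 6.38% of all probe sets. dnaaf10.L, also called wdr92, differed by 0.22 (limma's adjusted p = 0.269), dnaaf4.L, also called dyx1c1, by -0.08 (limma's adjusted p = 0.859) and dnaaf5.L, also called heatr2, by -0.35 (limma's adjusted p = 0.292). dnaaf5.L varied from 254 to 656 among Nkx2-5+GFP embryos, a wider range than the 391 to 616 of GFP embryos.

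Radial spokes pass signals from the central apparatus to the dynein arms, and their 3 genes had 0 calls as well. For so few genes this is near the 6.38% called of all probe sets. rsph1.L, of the spoke head, had signals from 9.74 in GFP embryo 5 to 79.9 in GFP embryo 4, while Nkx2-5+GFP embryos lay between 56.8 and 107. Its log2 difference of 0.63 did not pass (95% interval -0.03 to 1.29, limma's adjusted p = 0.231). rsph9.L, also of the spoke head, differed by 0.19 in the chosen probe set and by 0.34 in the other. rsph3.L, of the spoke stalk, differed by -0.08. spag6.L, a gene of the central apparatus, ran from 10.9 through 41.3 to 64.2 in GFP embryos and from 52.2 through 58.5 to 121 in Nkx2-5+GFP embryos, which gives 0.68 in log2 units and did not pass (limma's adjusted p = 0.128). Nkx2-5+GFP embryos 5 and 6 were its highest, at 91.6 and 121. spag7.L, which shares only the name of the family and is not known as an axonemal gene, had 8299 ± 852 and 8384 ± 913 (SD, n = 6 each), with an interval from -0.17 to 0.20, and its sign turned with quantile normalization, at -0.06.

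The beta tubulin gene tubb4b serves cytoplasmic microtubules as well as axonemes. tubb4b.L had 6161 ± 1199 and 7123 ± 1081 (SD, n = 6 each), a log2 difference of 0.22 (95% interval -0.05 to 0.48), and tubb4b.S differed by -0.04, a sign that turned with quantile normalization or median scaling at values under 0.01. Neither copy passed the test.

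**Figure D3:**
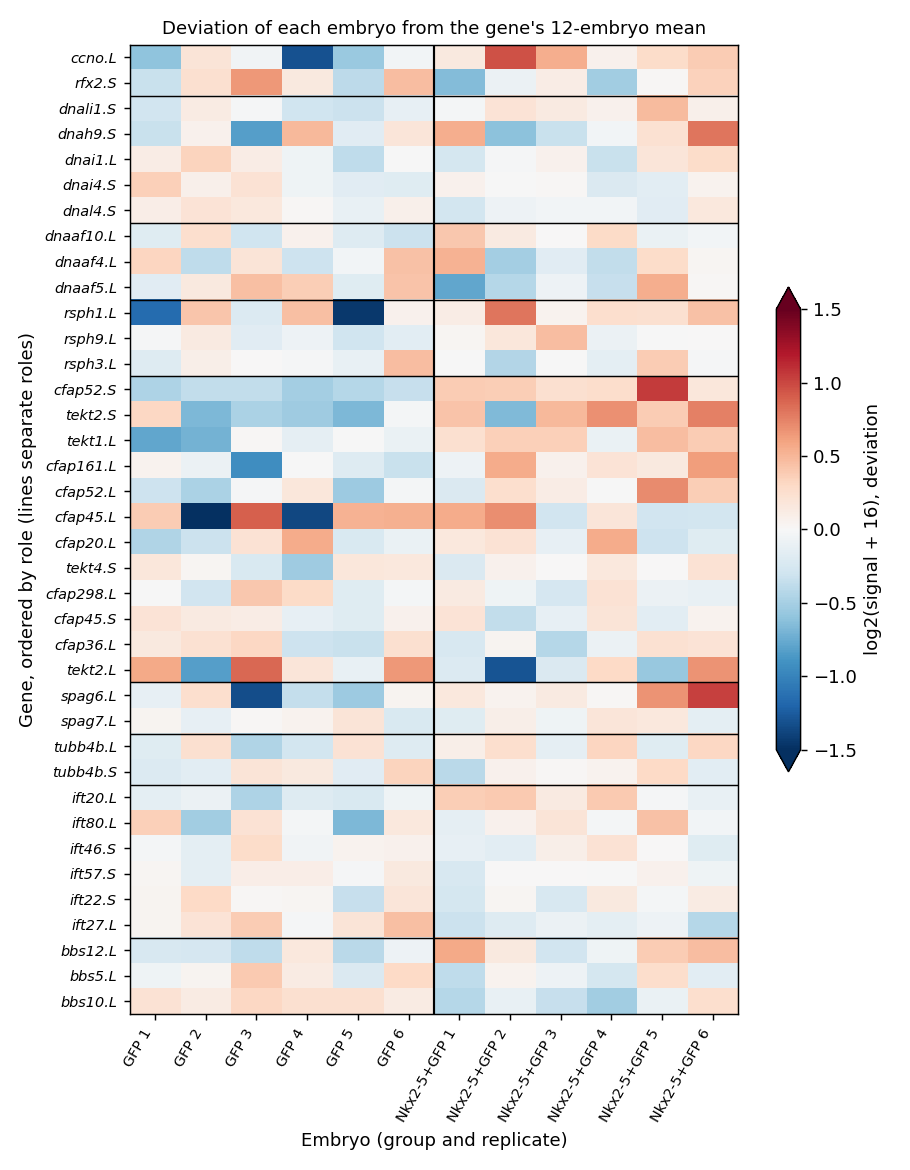
Deviation of each of the 12 embryos from the 12-embryo mean of each gene, on the log2(signal + 16) scale, with the genes ordered by role. GFP embryo 5 is the lowest embryo in 9 of the 38 genes and lies above the mean in 7, whereas Nkx2-5+GFP embryos 5 and 6 lie above the mean in 24 and 25.

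Intraflagellar transport genes, 6 measured, had 0 calls, which for so few genes is near the 6.38% called of all probe sets. Their median log2 difference was -0.06, yet 2 of them lay near the threshold in opposite directions. ift27.L, for a Rab-like GTPase of the transport trains, ran from 286 through 336 to 401 in GFP embryos and from 211 through 257 to 274 in Nkx2-5+GFP embryos. The groups did not overlap, and the log2 difference was -0.42 (standard error 0.12, limma's adjusted p = 0.0539, exact permutation p = 0.00216). Without Nkx2-5+GFP embryo 5 ift27.L passed, at -0.44 (limma's adjusted p = 0.0439). In that fit the calls over the whole array went from 988 to 1485. In the other 11 omissions of 1 embryo ift27.L did not pass (limma's adjusted p up to 0.127). Including cfap52.S, 2 of the 38 genes had groups that did not overlap, or 5.26%, against 2.99% of all probe sets. ift20.L, for a subunit that also works at the Golgi, ran from 460 through 566 to 613 in GFP embryos and from 592 through 769 to 846 in Nkx2-5+GFP embryos. Of these, 5 exceeded every GFP embryo, and the log2 difference was 0.39 (standard error 0.12, limma's adjusted p = 0.0566, exact permutation p = 0.00649). ift20.L passed without Nkx2-5+GFP embryo 5 or 6 and did not pass in the other 10 omissions of 1 embryo. The remaining subunit genes showed smaller differences. ift80.L differed by 0.16, ift22.S by -0.08, ift57.S by -0.08 and ift46.S by -0.05, and for ift57.S and ift46.S the 95% intervals, from -0.26 to 0.10 and from -0.26 to 0.16, allow a fall of at most 0.26 on the log2 scale.

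The BBS genes numbered 3, with 0 calls, which for so few genes is near the 6.38% of all probe sets. bbs10.L, for a chaperonin-like protein that helps to assemble the BBSome, ran from 185 through 200 to 213 in GFP embryos and from 112 through 142 to 203 in Nkx2-5+GFP embryos. Of the latter, 5 lay below every GFP embryo and embryo 6 lay among them, and the log2 difference of -0.42 did not pass (limma's adjusted p = 0.0938). bbs12.L, for a related chaperonin-like protein, differed by 0.40 at low signals (limma's adjusted p = 0.213), and bbs5.L, for a BBSome subunit, differed by -0.19.

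Embryos of a group differed among themselves as much as many genes did between groups. GFP embryo 5 was the lowest of all 12 in 9 of the 38 genes and had a median deviation of -0.19 from the genes' 12-embryo means. GFP embryo 3 was the highest in 8 genes and the lowest in 5. Nkx2-5+GFP embryo 5 was the highest in 6 genes and the lowest in 0, with a median deviation of 0.15. The 7 probe sets of the same genes that were not chosen, for cfap20.L, cfap45.S, dnah9.S, dnal4.S, rsph9.L and spag7.L, also had 0 calls. Of all probe sets 6.38% were called, so 0 among so few is near that share.

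Ciliary genes outside the name families were taken from lists of known ciliary genes, chosen with earlier results of these data known. Of 16 further genes of axoneme and motility, 1 rose, 0 fell and 15 did not pass, with a median log2 difference of 0.05. The share called was 6.25%, against 6.38% of all probe sets. The rise was dynll1.S, for a light chain that dyneins share with many other complexes, from 2993 ± 684 to 5346 ± 956 (SD, n = 6 each), which is 0.84 on the log2 scale (standard error 0.15, limma's adjusted p = 0.00664). Its L copy, named as the partner of a called gene, differed by 0.41, short of the threshold (limma's adjusted p = 0.158). Of genes not called, the beta tubulin gene tubb4a.S differed by 0.02. The 16 genes had 10 differences above 0 and 6 below. At an unadjusted p under 0.05 limma marked 3 of them as higher, both dynll1 copies among them, and 0 as lower. The share higher was 18.75%, against 10.9% of all probe sets.

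Of 14 further genes of ciliary transport and the transition zone, the gate at the base of the cilium, 0 rose, 1 fell and 13 did not pass. Their median log2 difference was -0.22, and the share called was 7.14% against 6.38% of all probe sets. tmem237.L, for a membrane protein of the transition zone, fell by 0.45 as a log2 value (standard error 0.13, limma's adjusted p = 0.0494), from 535 ± 74.3 to 388 ± 59.3 (SD, n = 6 each). This call was close to the threshold and held in 6 of 22 alternative fits, among them 1 of 12 omissions of 1 embryo. b9d1.L, for a protein of the transition zone, differed by 0.04. arl6, for the GTPase that recruits the BBSome to membranes and named after its value was seen, differed by -0.58, short of the threshold (limma's adjusted p = 0.0543). The 14 genes had 11 differences below 0 and 3 above. At an unadjusted p under 0.05 limma marked 0 of them as higher and 5 as lower, or 35.7%, against 13.3% of all probe sets.

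Of 22 genes of centrioles and basal bodies, 1 rose, 3 fell and 18 did not pass, a share called of 18.2% against 6.38% of all probe sets. The median log2 difference was -0.19, with 4 differences above 0 and 18 below. At an unadjusted p under 0.05 limma marked 2 as higher and 8 as lower (9.09% and 36.4%, against 10.9% and 13.3% of all probe sets). The brightest genes not called, the centrin copies cetn3.S and cetn3.L, differed by -0.24 and -0.18 (limma's adjusted p = 0.0632 and 0.116). poc1a.L, for a centriole protein, went up from 298 ± 35.1 to 461 ± 63.0 (SD, n = 6 each), which is 0.60 on the log2 scale (standard error 0.12, limma's adjusted p = 0.0143), and its groups did not overlap. poc5.L, for another centriole protein, fell by 0.82 as a log2 value (standard error 0.19, limma's adjusted p = 0.0247), from 675 ± 195 to 372 ± 95.2. The delta tubulin gene tubd1.L fell by 0.76 (standard error 0.19, limma's adjusted p = 0.0333), from 484 ± 131 to 280 ± 80.9. cep20.L, for a protein of centriolar satellites and basal bodies, fell by 0.83 (standard error 0.22, limma's adjusted p = 0.0408), from 479 ± 135 to 267 ± 82.1. The calls of genes that fell in the lists outside the families, 4 in the fit on all embryos, numbered 0 with the beta-actin ratio in the fit. They also numbered 0 when GFP embryo 3, 4 or 6 was omitted, and likewise for embryos 1, 4 and 6 of the Nkx2-5+GFP group. Without GFP embryo 2 or Nkx2-5+GFP embryo 2 they numbered 2, while the rises of dynll1.S and poc1a.L each passed in 12 of 12 omissions of 1 embryo. With the beta-actin ratio in the fit dynll1.S passed (limma's adjusted p = 0.0353) and poc1a.L did not (limma's adjusted p = 0.0550).

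**Figure D4:**
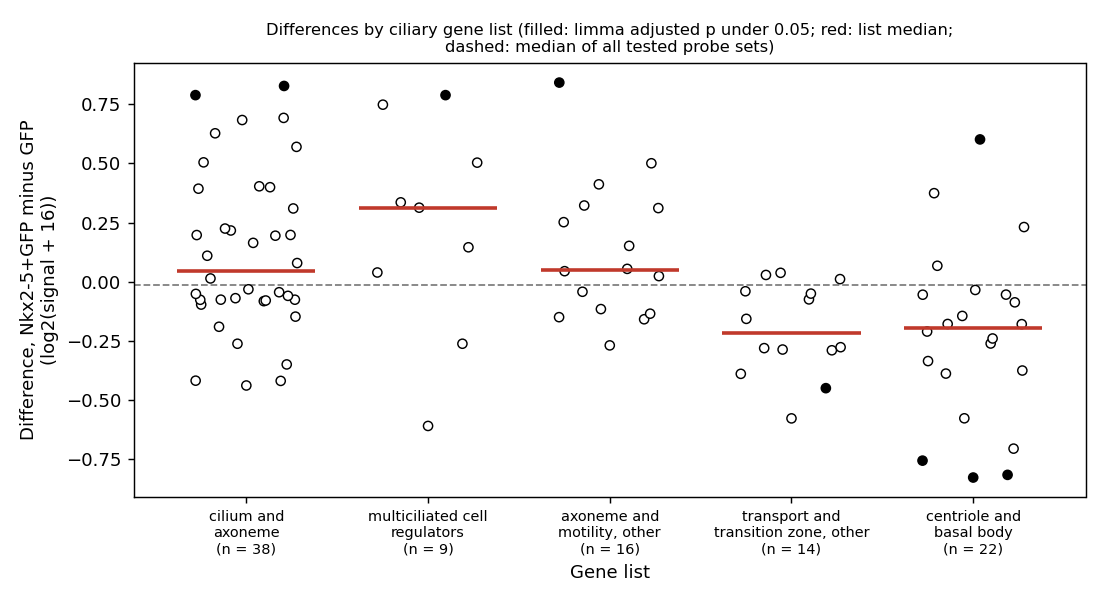
Difference between Nkx2-5+GFP and GFP embryos on the log2(signal + 16) scale for the cilium and axoneme genes and for 4 further ciliary lists, with 1 point per gene, list medians in red and the median of all probe sets dashed. The medians are 0.05, 0.31, 0.05, -0.22 and -0.19 from left to right, and ccno.L and rfx2.S stand in both of the first lists.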

How the data were processed

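Each of 12 single embryos was measured on its own 1-colour array, from 100 ng of total RNA labelled with biotin, per the labels' protocols. The deposited intensity values are MAS5 signals on a linear scale, per the submitters' processing notes. The version of MAS5, its scaling target and any detection calls were not stated in any source at hand. The trimmed mean signal, with 2% removed at each end, was 1000.1 on each array. Signals were analysed as log2(signal + 16) without further scaling. Of 15611 probe sets, 120 controls were left out and no filter on low values was applied. Limma 3.58.1 in R 4.3.3 (lmFit, eBayes with an intensity trend, 2-sided, 10 residual degrees of freedom) was fitted to all 15491, and p-values were adjusted over all of them. The script was tested on simulated data. Exact permutation tests are 2-sided over all 924 assignments, so that no p lies below 0.00216. The number of arrays limits the precision.

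Names come from the array's annotation, updated by gene number with a RefSeq table of the assembly Xenopus_laevis_v10.1. The members and lists were chosen with earlier results of these data known. All 38 members were eligible for naming, with foxj1 and, from each further list, up to 4 called genes of smallest p and up to 2 of highest mean level that did not pass. Other names were chosen after their values were seen, as is said beside them. The comparison of L and S copies was added after the values were seen. Titles number the replicates alike in both groups, but correlations of same-numbered embryos' deviations ran from -0.15 to 0.13, so the numbers were not taken as pairs. The alternatives were pseudocounts of 1 and 64, omission of dimmer probe sets, quantile normalization, median scaling, other variance settings, array weights, the beta-actin ratio, the replicate block, every matching probe set and omission of each embryo. Plots were drawn with matplotlib 3.10.9.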

Additional observations from a re-analysis of the deposited data

Results flagged for a closer look

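In cfap52.S, Nkx2-5+GFP embryo 5 stood apart from its group, at a signal of 495 against 263 to 307 in the other embryos. The gap to the nearest embryo took up 0.757 of the group's range on the log2(signal + 16) scale, above Dixon's critical value for 6 samples. In tekt2.S, Nkx2-5+GFP embryo 2 was far below the others, at 3.06 against 23.2 to 34.9, with a ratio of 0.736. Among 76 groups examined these 2 stood out, and chance marks about 5% of groups.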

How the results depend on the processing

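The number of cilium and axoneme genes that rose, 2 in the fit given above, was 1 without the intensity trend and 1 with the beta-actin ratio, and it ran from 1 to 3 when 1 embryo was left out. The number that fell, 0, was 1 with robust estimation and ran from 0 to 1 when 1 embryo was left out. cfap52.S passed in all 21 alternatives that tested it (limma adjusted p from 0.00422 to 0.0252), and ccno.L in 10 of 22 (0.00945 to 0.169). Lying below the array's median level, cfap52.S was not tested in the fit without dimmer probe sets. The 2 genes that rose in that fit were ccno.L and ift20.L (limma's adjusted p = 0.0342 and 0.0388). Of genes without a call above, ift20.L passed in 5 of 22, ift27.L in 2 of 21 and tekt2.S in 1 of 21. The count over the array, 988, was 437 without the trend, 203 with the beta-actin ratio and 285 to 1485 without 1 embryo. It ran from 285 to 558 without GFP embryo 2, 3, 4 or 6 or without embryo 1, 2, 4 or 6 of the other group, and it was 1484 without GFP embryo 5 and 1485 without Nkx2-5+GFP embryo 5. In the further ciliary lists, 2 genes rose with all embryos and 1 with the beta-actin ratio. There 4 fell, against 7 without dimmer probe sets, 1 without the trend, 0 with the beta-actin ratio and 0 to 6 without 1 embryo. The cause was not tested.

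Signs turned only in 8 of the 38 genes, none of them called. With the beta-actin ratio cfap298.L was at 0.015. With quantile normalization dnai1.L was at 0.034, spag7.L at -0.058 and tubb4b.S at 0.00092, and with median scaling dnai1.L was at 0.017 and tubb4b.S at 0.0063. When 1 embryo was left out, the ranges were -0.12 to 0.015 for cfap298.L, -0.093 to 0.40 for cfap45.L, -0.19 to 0.019 for dnaaf4.L, -0.11 to 0.032 for dnai1.L, -0.16 to 0.0045 for rsph3.L, -0.031 to 0.055 for spag7.L, -0.019 to 0.13 for tekt4.S and -0.11 to 0.032 for tubb4b.S. With the replicate block, 2 members rose, 0 fell and 779 probe sets were called, and in the further ciliary lists 2 genes rose and 5 fell. The alternatives did not cover the counts of the epidermal, maternal, mesoderm and endoderm, cell cycle and neural lists. Over alternatives chosen after seeing the data, the contrast of cfap52 copies passed in 4 of 14 and that of the dim tekt2 copies in 14 of 14. Dim signals limit 20 of the 38 genes.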
